A study of Mus musculus with 9 samples.

Results

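The genes described here encode the nuclear part of the oxidative phosphorylation machinery of mouse keratinocytes. They were chosen by symbol: names beginning with Nduf, Uqcr, Atp5 or Cox4 to Cox8, plus Sdha, Sdhb, Sdhc, Sdhd and Cyc1. This gave 93 of the 24532 genes in the table, of which 82 are subunits: 36 of complex I, 4 of complex II, 9 of complex III, 18 of complex IV and 15 of complex V. The other genes were 7 Ndufaf assembly factors of complex I and 4 that share the names without being counted here as subunits (Ndufa4l2, Cox7a2l, Atp5s and Atp5sl). Ndufa4 was placed in complex IV, where its protein is now known to sit. RNA came from C57BL/6 mice with no treatment, at postnatal day 1, day 7 and day 14, with 3 libraries per day and 9 in all. Living skin cells lacking CD45.2, the leukocyte surface marker, were sorted and labelled keratinocytes, with no positive keratinocyte marker in the gate. How many animals stand behind each library is not stated, so p-values cover only library-to-library spread, which may be technical.

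In the inner mitochondrial membrane, complexes I and II pass electrons from NADH and succinate to ubiquinone. Complex III moves them on to cytochrome c and complex IV to oxygen, while complexes I, III and IV pump protons that complex V uses to make ATP. Complexes I, III, IV and V combine subunits from nuclear genes with subunits from mitochondrial DNA, and complex II is nuclear throughout. Epidermal keratinocytes are known to make much of their ATP by glycolysis, and to lose their mitochondria as they cornify.

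Total counts ran from 50670191 to 62970768 per library. Of the 93 genes, 87 passed the filter on low counts and were tested; the other 6 are alternative complex IV subunits close to 0 counts. The 10 keratinocyte markers summed to 54660 to 61950 at day 1, 64710 to 66980 at day 7 and 50570 to 54600 at day 14. These are library-scaled counts (CPM) on library sizes adjusted by the trimmed mean of M values (TMM). No 2 ages overlapped in this sum, which was highest at day 7 and lowest at day 14. From day 7 to day 14 Krt5, Krt14, Krt1 and Krt15 fell, while Trp63, Cdh1, Itga6 and Dsg3 rose (adjusted p under 0.05, edgeR). Marker sums of other cell types also moved with age: the 7 melanocyte markers went from 373.5 to 400.7 CPM at day 1 down to 14.98 to 19.13 at day 14, the 7 fibroblast markers from 130.2 to 234.6 down to 56.8 to 73.3, and the 9 leukocyte markers from 5.90 to 7.68 up to 30.1 to 31.6. Thy1, of the fibroblast list, went the other way, from 8.78 ± 0.811 CPM at day 1 to 37.9 ± 1.96 at day 14 (mean ± SD, n = 3). In that list falls between these ages were called for Dcn, from 106.9 ± 26.9 to 6.79 ± 1.92 CPM, and for Col1a2. Col1a1, Col3a1, Lum and Pdgfra were not called in any comparison. The 6 erythroid markers were highest at day 7, at 11.7 to 41.5 CPM, against 0.244 to 1.66 at day 1 and 1.83 to 5.43 at day 14. None of the markers in these lists was at 0 in all libraries, and their part in the results was not tested. Xist, the RNA of the inactive X chromosome in females, was at 0 in all day 7 libraries and at 861 CPM or more in every library of the other days. Ddx3y, a Y-linked gene, was at 0 in all day 14 libraries. Every day 1 library held both, with Ddx3y at 29.0 to 55.6 CPM, as RNA pooled from animals of both sexes would give. The sex of the animals and the age therefore cannot be told apart here. In bulk RNA, fewer cells of a type and less RNA per cell cannot be told apart either.

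The 5 promoters below belong to members of each complex that rose from day 1 to day 7 and then fell to day 14, and were printed as examples that hold a motif, which many members do not. Capitals mark 3 motifs searched on both strands: GCGCANGCG, of the type bound by NRF1, CCGGAAG, of the type bound by the ETS factor GABP, and ATGGCGGC, of the type bound by YY1. Where the match is on the other strand, its complement is in capitals. Each is the RefSeq window of GRCm38.p6 from 250 bases before to 50 after a start of the gene, printed 5′ to 3′ along the gene. For Ndufs7 that start lies inside the gene as placed by RefSeq, which begins at 80249105.
Ndufs7 (complex I), chr10:80249199-80249498, plus strand: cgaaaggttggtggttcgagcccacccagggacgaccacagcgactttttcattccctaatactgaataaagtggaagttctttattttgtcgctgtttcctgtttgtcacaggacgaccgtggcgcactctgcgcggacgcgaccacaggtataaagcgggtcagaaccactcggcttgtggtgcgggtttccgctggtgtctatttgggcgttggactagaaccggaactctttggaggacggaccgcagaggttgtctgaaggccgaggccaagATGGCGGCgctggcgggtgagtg
Sdhd (complex II), chr9:50603800-50604099, minus strand: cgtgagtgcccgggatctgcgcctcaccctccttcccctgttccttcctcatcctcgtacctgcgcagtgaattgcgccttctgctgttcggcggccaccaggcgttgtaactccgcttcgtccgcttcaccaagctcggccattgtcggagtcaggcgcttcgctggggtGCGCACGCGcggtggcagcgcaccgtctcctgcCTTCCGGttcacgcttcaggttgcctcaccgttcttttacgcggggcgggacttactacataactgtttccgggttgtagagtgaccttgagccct
Uqcr11 (complex III), chr10:80406772-80407071, minus strand: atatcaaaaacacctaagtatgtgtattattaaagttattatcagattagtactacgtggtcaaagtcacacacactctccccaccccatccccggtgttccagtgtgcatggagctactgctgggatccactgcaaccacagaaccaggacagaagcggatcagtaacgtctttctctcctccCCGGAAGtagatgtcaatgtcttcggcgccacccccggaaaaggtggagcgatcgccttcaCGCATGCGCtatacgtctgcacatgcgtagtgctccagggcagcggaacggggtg
Cox6b1 (complex IV), chr7:30626065-30626364, minus strand: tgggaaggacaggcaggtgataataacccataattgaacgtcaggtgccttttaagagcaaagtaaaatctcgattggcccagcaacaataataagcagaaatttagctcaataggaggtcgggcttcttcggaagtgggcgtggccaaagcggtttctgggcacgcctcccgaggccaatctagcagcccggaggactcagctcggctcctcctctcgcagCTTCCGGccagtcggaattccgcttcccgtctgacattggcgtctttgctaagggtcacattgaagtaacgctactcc
Atp5h (complex V), chr11:115419870-115420169, minus strand: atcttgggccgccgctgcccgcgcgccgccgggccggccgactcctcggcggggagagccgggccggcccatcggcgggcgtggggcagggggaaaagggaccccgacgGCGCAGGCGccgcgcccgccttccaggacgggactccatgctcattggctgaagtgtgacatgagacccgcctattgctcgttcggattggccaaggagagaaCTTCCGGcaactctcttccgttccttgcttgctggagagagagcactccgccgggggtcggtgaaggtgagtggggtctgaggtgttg
Ndufs7 held the YY1-type motif 27 bases after the start used for its window, and Cox6b1 the ETS-type motif alone. Sdhd, Uqcr11 and Atp5h held both the NRF1-type and the ETS-type motif. RefSeq windows were found for 76 of the 93 members and for 11317 of the 14507 tested genes. A gene with more than 1 window was counted once, as holding a motif found in any of them. The NRF1-type motif stood in 22 of the 76 members (28.9%), against 14.3% of tested genes and 7.03% of all 27025 promoters in the table. The ETS-type motif stood in 22.4%, against 18.8% and 9.93%, and the YY1-type motif in 9.21%, against 5.3% and 2.6%. By complex, the NRF1-type motif was found for 7 of 14 members of complex V, 8 of 32 of complex I and 1 of 13 of complex IV. The YY1-type motif was found for 6 members of complex I and for no subunit of the other complexes. At least 1 of the motifs was found for 39 of the 76 members (51.3%), against 32.9% of tested genes, and in complex IV for 3 of 13. Those 13 include the 3 untested members with a window, Cox7a1, Cox7b2 and Cox8b, which held none of the motifs. Among members called up and then down the share was 18 of 34 (52.9%), and among the other tested members 21 of 39 (53.8%). These are matches of letters, and no binding was measured.

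Levels were compared between genes as CPM per kilobase of the longest annotated transcript, which may differ from the transcript these cells use. At day 1 the median over the tested subunits was 44.3 CPM per kilobase in complex I, 64.2 in complex II, 109 in complex III, 111 in complex IV and 125 in complex V. At day 14 these medians were 36.8, 43.3, 82.3, 98.2 and 114. Complex V held the highest median and complex I the lowest at every age. Atp5b, the catalytic β subunit of ATP synthase, was the most abundant subunit transcript per length at each age, at 631 ± 12.4, 675 ± 19.1 and 483 ± 3.73 CPM per kilobase at days 1, 7 and 14 (mean ± SD, n = 3). Cox4i1 led complex IV at 299 ± 15.0, 354 ± 5.10 and 284 ± 7.15. The Ndufaf factors, which build complex I without staying in it, were lower, with a median of 6.41 CPM per kilobase at day 1 and 5.54 at day 14.

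Together the subunit genes took 0.839, 0.908 and 0.853 percent of all counts in the day 1 libraries numbered 4, 5 and 6. They took 0.911, 0.906 and 0.915 percent in the day 7 libraries and 0.618, 0.613 and 0.589 percent in the day 14 libraries. Day 1 library 5 was as high as day 7, so the share did not separate these ages, while every day 14 library was below every earlier one. The mean share was 0.867 ± 0.0363% at day 1, 0.911 ± 0.0045% at day 7 and 0.607 ± 0.0157% at day 14 (SD, n = 3). By complex, the day 7 libraries lay above all day 1 libraries in complexes III and V and overlapped them in complexes I, II and IV, and day 14 was lowest in all 5. Complex II went from 0.0452 ± 0.00155% at day 1 to 0.0454 ± 0.0000929% at day 7 and 0.0276 ± 0.000341% at day 14. Complex V, the largest share, went from 0.398 ± 0.0130% to 0.417 ± 0.00191% and 0.270 ± 0.00536%. These shares were not tested, since the genes were chosen with results known.

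**Figure D1:**
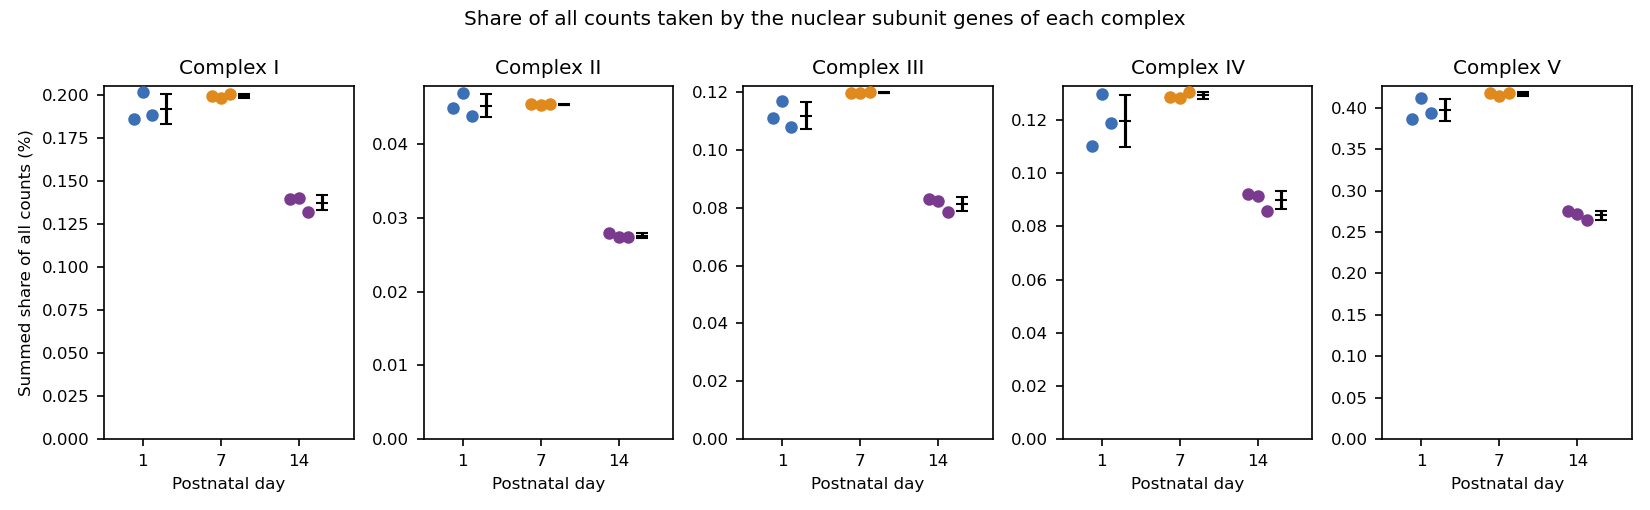
Summed share of all counts (%, from 0) taken by the nuclear subunit genes of each complex, by postnatal day. Each coloured point is 1 library and the black mark with bars is the mean ± SD of 3; every day 14 library lies below every day 1 and day 7 library in all 5 complexes.

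In the first week, from day 1 to day 7, the members rose more often than other genes, by small amounts. Of 87 tested members 47 rose (54%), where 25.5% of all tested genes rose, and 3 fell (3.45%), where 24% of all fell (edgeR quasi-likelihood test, adjusted p under 0.05). The median log2 fold change was 0.18 over the members and -0.00053 over all genes. Ndufa4l2 was the only member past 2-fold. Day 1 library 4 was low and library 5 high in most members, and the count of rises ran from 35 without library 4 to 55 without library 5. With libraries scaled by their totals alone 22 members rose and 4 fell, while 2658 of all genes rose and 4789 fell, against 3695 and 3476 with TMM scaling. Rescaling shifts all genes of a comparison nearly alike, so the member median was bound to stay 0.18 above that of all genes. Of the genes named below, the first-week rises of Ndufa6, Ndufs7, Uqcrc1, Uqcrc2, Uqcrfs1, Uqcr10, Cox5b, Cox6a1, Cox7a2, Cox7b, Ndufa4, Atp5a1, Atp5c1 and Ndufaf7 were not called with library totals alone, and Ndufs1 was then called as a fall (-0.15).

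In the second week, from day 7 to day 14, nearly every member fell. Falls were called for 75 members (86.2%), where 35.1% of all tested genes fell, and rises for 2 (2.3%), where 32.5% of all rose. The 2 that rose, Ndufa4l2 and Atp5sl, are not counted as subunits, and no subunit rose. Of the 76 tested subunits 68 fell, with a median log2 fold change of -0.41, against -0.035 over all genes. In each called fall the day 14 libraries lay below all day 7 libraries, except for Ndufa13, where they overlapped. With any single library left out between 71 and 78 members fell. Library totals alone shifted the median of all genes to -0.21 and gave 82 falls. The member median was 0.38 below it, as with TMM, a distance that rescaling leaves nearly unchanged in any data. On that scaling 3563 of all genes rose and 6653 fell, against 4713 and 5095 with TMM. It also called falls for Ndufa1, Ndufa6, Ndufv3, Cox6a1, Atp5d and Atp5g1, which are described below as not called, and did not call the rise of Atp5sl.

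Over both weeks, from day 1 to day 14, 54 members fell (62.1%), where 38.4% of all genes fell, and 5 rose (5.75%), where 35.5% of all rose. The member median was -0.23, against -0.046 over all genes. The 5 that rose were Ndufa4l2, Atp5s, Ndufv3, Ndufa6 and Ndufb3, and for Ndufa6 and Ndufb3 the sign turned with library totals alone. That scaling called falls for 78 members and put the median of all genes at -0.32. Among all genes it gave 3632 rises and 7762 falls, against 5150 and 5566 with TMM. Some difference over the 3 days was called for 80 of the 87 members, where 82.1% of all tested genes had one. The comparisons share libraries: a deviation of the day 7 libraries would enter both weekly steps, with opposite signs. The column headers of day 7 take another form (KLRNA) than those of days 1 and 14 (KL). Whether day 7 was handled apart is not stated, and this cannot be told apart from age.

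**Figure D2:**
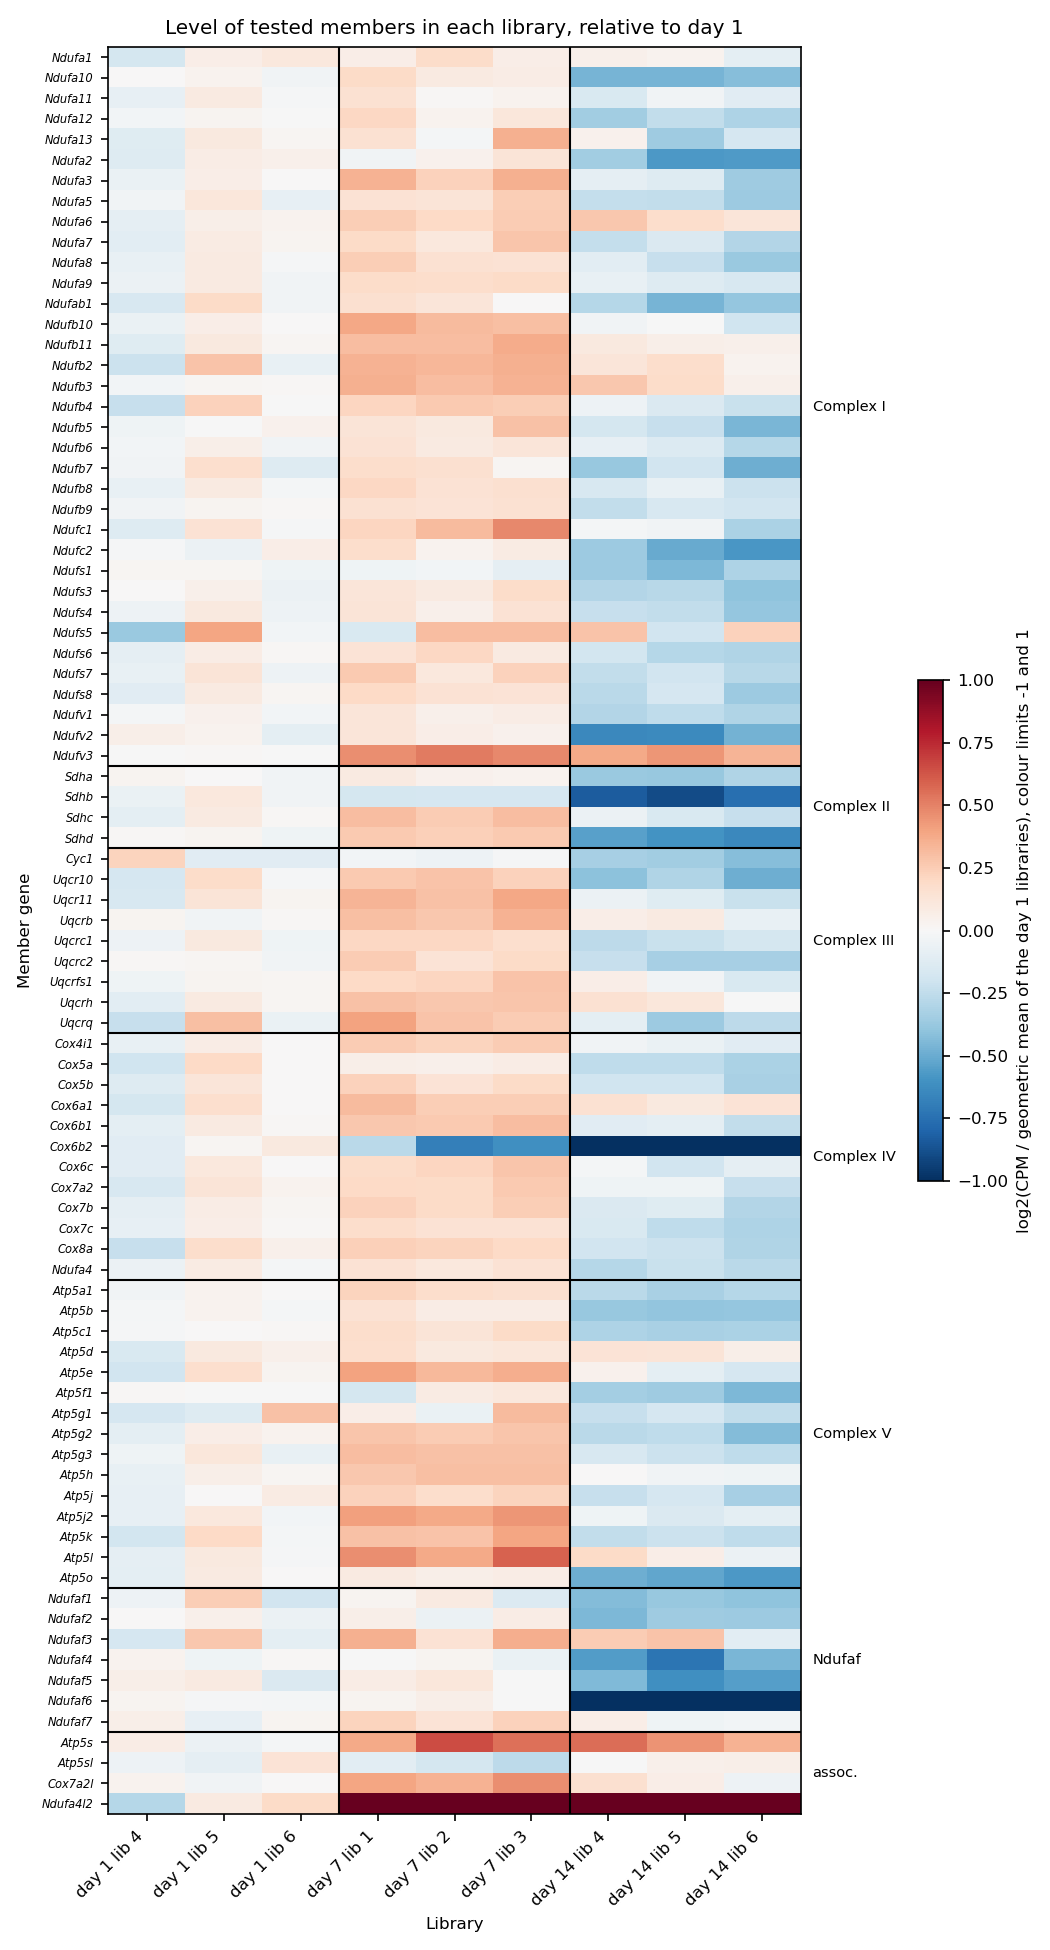
Level of the tested members (rows, by complex, with 1 not shown) in each of the 9 libraries (columns), as log2 of CPM over the geometric mean of the day 1 libraries. Red is above and blue below day 1, with colour limits at -1 and 1 that Ndufa4l2, Ndufaf6 and Cox6b2 pass; most rows are pale red at day 7 and blue at day 14.

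**Figure D3:**
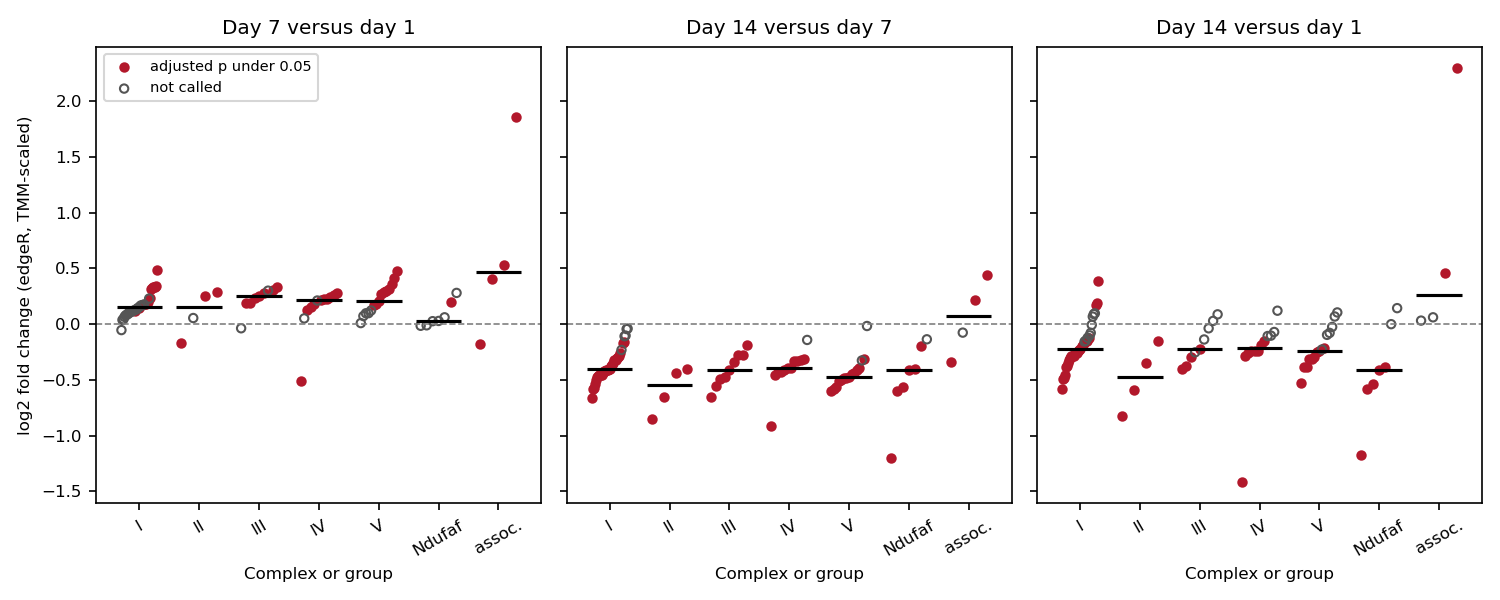
Log2 fold change of each tested member in the 3 comparisons of days, by complex or group, from edgeR on TMM-scaled counts. Filled red points passed an adjusted p of 0.05, open points did not, and black lines are medians; in the day 14 versus day 7 panel every subunit lies below 0, and no point lies above 0 but Ndufa4l2 and Atp5sl.

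Complex I takes electrons from NADH and is the largest of the complexes. From day 1 to day 7, 15 of its 36 members rose and none fell, with a median log2 fold change of 0.15. From day 7 to day 14, 31 fell and none rose, with a median of -0.40. For comparison, 25.5% of all tested genes rose and 24% fell in the first week, and 32.5% rose and 35.1% fell in the second. The core subunits named here, most of which hold the flavin and iron-sulfur centres or the ubiquinone site, all fell in the second week. Of these core subunits only Ndufs7 had risen in the first. Ndufs7 is part of the ubiquinone site and has the YY1-type promoter printed above. It measured 34.8, 40.0 and 35.4 CPM at day 1, 43.9, 39.5 and 43.1 at day 7 and 31.0, 32.1 and 30.2 at day 14. The day 1 and day 7 libraries overlapped, and the day 14 libraries were all lowest. Its rise was 0.20 ± 0.065 on the log2 scale (adjusted p = 0.0224, edgeR) and was lost without day 1 library 4 or 6 or day 7 library 1 or 3, at 0.16 to 0.19.

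Ndufv2, which carries an iron-sulfur cluster beside the flavin, had the largest fall of complex I. Its libraries read 68.5, 67.1 and 61.4 CPM at day 1, 71.3, 68.7 and 67.7 at day 7 and 41.9, 42.2 and 47.3 at day 14. The first 2 ages overlapped and day 14 stood clear below both. Ndufv2 fell by 0.66 ± 0.060 (log2 ± SE, adjusted p = 1.03e-06, edgeR) in the second week, to 0.632 of its day 7 level. Ndufv1, the subunit that binds NADH and the flavin, read 98.3, 102 and 97.5 CPM at day 1, 108, 103 and 105 at day 7 and 80.9, 83.5 and 80.5 at day 14. It fell by 0.37 ± 0.041 in the second week, a smaller step than that of its neighbour. Ndufs1, the largest iron-sulfur subunit, read 113, 112 and 108 CPM, then 108, 109 and 104, then 86.0, 81.4 and 89.4. Its log2 fold change in the first week was -0.054 ± 0.045, not called, and it fell by 0.32 ± 0.045 in the second. The iron-sulfur subunit Ndufs8 and its neighbour Ndufs3 fell by 0.42 ± 0.064 and 0.45 ± 0.052 in the second week, with no call in the first.

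The accessory subunits around this core did not all move alike. Ndufv3 (mm10, chromosome 17, 31520115 to 31531326), an accessory subunit at the NADH end, read 44.0, 44.4 and 43.9 CPM at day 1, 61.0, 63.3 and 61.5 at day 7 and 57.4, 59.9 and 55.7 at day 14. It had the largest rise of complex I in the first week, 0.49 ± 0.044 (adjusted p = 2.2e-06, edgeR). The day 14 libraries stayed above all day 1 libraries, a rise of 0.39 ± 0.044 over both weeks, while the step from day 7 to day 14 was -0.10 ± 0.044 (adjusted p = 0.0536) and was called when any day 1 library or day 14 library 5 was left out. Ndufa6, a small accessory subunit of the peripheral arm, read 32.1, 35.7 and 35.2 CPM, then 40.6, 39.4 and 40.9, then 41.4, 38.8 and 37.4. It rose in the first week and kept overlapping values in the second. Ndufs5 was low in every library, from 1.72 to 2.91 CPM, with no called difference. Reads of near-identical copies in the genome may be missing from or added to short genes of this kind, so its level is uncertain. The X-linked members differed: Ndufb11 rose and then fell, while Ndufa1 was not called in any comparison.

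Complex II, succinate dehydrogenase, also works in the tricarboxylic acid cycle. All 4 of its subunits fell in the second week and all 4 were below day 1 at day 14, with the lowest median of the complexes in both comparisons (-0.55 and -0.47). In the same comparisons 35.1% and 38.4% of all tested genes fell. In the first week its genes split: the membrane anchors Sdhc and Sdhd rose, the iron-sulfur subunit Sdhb fell, and the flavoprotein Sdha was not called. Sdhb (mm10, chromosome 4, 140961271 to 140979198) read 78.8, 88.6 and 80.5 CPM at day 1, 73.1, 73.3 and 73.4 at day 7 and 46.4, 44.4 and 48.9 at day 14. No 2 ages overlapped, and the level stepped down each time. The first step was a fall of 0.17 ± 0.054 (adjusted p = 0.0176, edgeR), lost without day 1 library 5 at -0.12, and the second a fall of 0.65 ± 0.054. At day 14 it stood at 0.564 of its day 1 level. Sdhd, whose promoter is printed above with an NRF1-type and an ETS-type motif, read 86.8, 88.0 and 83.8 CPM, then 103, 102 and 103, then 59.2, 57.1 and 55.1. It rose by 0.25 ± 0.042 and then had the largest fall of any complex II subunit, 0.85 ± 0.043 (adjusted p = 6.99e-09, edgeR), to 0.556 of day 7. Sdhc read 71.8, 81.9 and 77.6 CPM, then 95.2, 91.8 and 95.4, then 73.8, 69.2 and 65.5. Its rise of 0.29 ± 0.057 was followed by a fall of 0.44 ± 0.057, which left day 14 overlapping day 1. The fall of Sdhc from day 1 to day 14, 0.15 ± 0.057, was lost without library 5 or 6 of either age, at -0.16 to -0.12. Sdha, the catalytic flavoprotein, read 173, 169.6 and 166 CPM, then 180.2, 174 and 173, then 131, 129.9 and 137, and fell by 0.41 ± 0.043 in the second week.

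In complex III, which hands electrons from ubiquinol to cytochrome c, 7 of 9 subunits rose in the first week and all 9 fell in the second. Those steps had 25.5% rises and 35.1% falls among all tested genes. Cyc1 and Uqcrq were the 2 not called in the first week. Uqcrfs1 carries the Rieske iron-sulfur centre. It read 77.0, 80.8 and 80.8 CPM at day 1, 91.4, 92.4 and 97.0 at day 7 and 83.3, 77.5 and 71.5 at day 14. Day 7 lay above both other ages, which overlapped each other, after a rise of 0.23 ± 0.056 and a fall of 0.27 ± 0.056. Cyc1, the other redox subunit, holds haem c1. It read 177, 141 and 140.4 CPM, then 149, 147 and 151, then 121, 119 and 113. Day 1 library 4 stood apart from the other day 1 libraries, and the fall of the second week was 0.34 ± 0.079. The large core subunits Uqcrc1 and Uqcrc2 rose by 0.19 ± 0.049 and 0.19 ± 0.048 and fell by 0.42 ± 0.049 and 0.49 ± 0.048. Uqcr11, a small subunit whose promoter is printed above, read 51.6, 63.0 and 58.5 CPM, then 72.6, 70.6 and 75.4, then 55.3, 52.8 and 49.2. Its rise, 0.34 ± 0.070, was the largest of the complex, and its day 14 libraries overlapped day 1. Uqcr10, another small subunit, read 41.8, 53.4 and 46.7 CPM, then 56.4, 57.4 and 55.1, then 35.4, 38.1 and 33.6. It had the largest fall of the complex, 0.66 ± 0.079 (adjusted p = 1.47e-05, edgeR), after a rise of 0.25 ± 0.078 that was lost without day 1 library 4 or 6 or day 7 library 2, at 0.17 to 0.24.

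Complex IV, cytochrome c oxidase, has several subunits encoded by alternative genes for different tissues. Of its 12 tested members 9 rose and Cox6b2 fell in the first week, and 11 fell in the second, with Cox6a1 not called. The shares of all tested genes were 25.5% rises and 24% falls in the first week and 35.1% falls in the second. Cox4i1, the form of subunit 4 found in most tissues, read 217, 239.9 and 229 CPM at day 1, 273, 266 and 273 at day 7 and 222, 219 and 212 at day 14. It rose by 0.24 ± 0.046, fell by 0.31 ± 0.046 and overlapped between day 1 and day 14. Cox6b1, whose promoter is printed above, read 98.1, 112 and 106 CPM, then 127, 126 and 131, then 97.4, 98.5 and 88.9. Its rise of 0.28 ± 0.056 was the largest of complex IV, the fall that followed was 0.43 ± 0.056, and the fall over both weeks was lost without day 1 library 5 or 6 or day 14 library 6, at -0.16 to -0.11. Cox5b rose by 0.18 ± 0.062, a call lost at 0.12 to 0.19 without library 4 or 6 of day 1 or 1 or 3 of day 7, and fell by 0.43 ± 0.062. Cox5a was not called in the first week (0.051 ± 0.078) and fell by 0.33 ± 0.078 in the second.

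The alternative genes were far apart in level and the tissue-restricted ones were close to nothing. Cox6a2, Cox7a1 and Cox8b are the heart and skeletal muscle forms of their subunits, Cox6b2, Cox7b2 and Cox8c are known from testis, and Cox4i2 from lung. Cox7b2, Cox8b and Cox8c had 0 counts in all 9 libraries. Cox6a2 had 7, 21 and 2 counts in the day 1 libraries and 0 in all later ones. Cox7a1 had 4, 12 and 4 counts at day 1, 6, 0 and 5 at day 7 and 4, 0 and 0 at day 14. Cox4i2 had 4, 0 and 10 counts at day 1, 0, 0 and 4 at day 7 and 0 at day 14. Markers of skeletal muscle were near 0 too: the 10 summed to between 2.04 and 5.10 CPM, and Myh8 and Des were at 0 in every library. Cox6b2 (mm10, chromosome 7, 4751792 to 4753094) was the exception among the restricted forms, at 3.64, 3.97 and 4.20 CPM at day 1, 3.27, 2.45 and 2.57 at day 7 and 1.5, 1.75 and 1.15 at day 14. Its ages did not overlap, and it had the largest loss of any subunit over both weeks, a fall of 1.42 ± 0.19 (adjusted p = 2.62e-05, edgeR). Its first step, -0.51 ± 0.18, was lost without day 1 library 5 or 6 or day 7 library 2 or 3, at -0.50 to -0.43.

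Among the common forms, Cox6a1 read 94.0, 119 and 106 CPM at day 1, 132, 126 and 126 at day 7 and 118, 113 and 117 at day 14. It rose by 0.26 ± 0.070, and its second step of -0.14 ± 0.070 (adjusted p = 0.09, edgeR) was called without day 1 library 4 or 5. Cox7a2, the common form of subunit 7a, rose by 0.22 ± 0.073, a call lost at 0.14 to 0.23 without library 4 of day 1 or 1 or 3 of day 7, and fell by 0.32 ± 0.074. The X-linked Cox7b rose by 0.22 ± 0.055 and fell by 0.41 ± 0.056. Cox8a was not called in the first week (0.21 ± 0.084, called without day 1 library 5) and fell by 0.46 ± 0.084 in the second. Its fall over both weeks was lost without day 1 library 5 or 6 or day 14 library 6, at -0.23 to -0.17.

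Ndufa4 and its paralogue Ndufa4l2 went opposite ways in the second week. Ndufa4l2 (mm10, chromosome 10, 127509274 to 127517154) is known as a target of the hypoxia-inducible factor HIF-1 whose product lowers complex I activity. It read 21.1, 27.5 and 29.4 CPM at day 1, 92.8, 94.5 and 95.0 at day 7 and 130.3, 136 and 117 at day 14. No 2 ages overlapped, and each age was above the one before. The rise was 3.62-fold in the first week (1.86 ± 0.11 on the log2 scale, adjusted p = 9.17e-07, edgeR) and 4.92-fold over both weeks. Ndufa4 read 56.8, 62.6 and 58.5 CPM, then 65.4, 63.8 and 65.5, then 48.7, 50.7 and 49.1. It fell by 0.39 ± 0.047 in the second week, after a rise of 0.13 ± 0.047 that was lost without any 1 library of day 7 or without day 1 library 4 or 6, at 0.10 to 0.15. Per length, Ndufa4l2 stood at 27.8 ± 4.64 CPM per kilobase at day 1 and 137 ± 10.1 at day 14, and Ndufa4 at 97.2 ± 4.82 and 81.1 ± 1.70 (mean ± SD, n = 3).

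**Figure D4:**
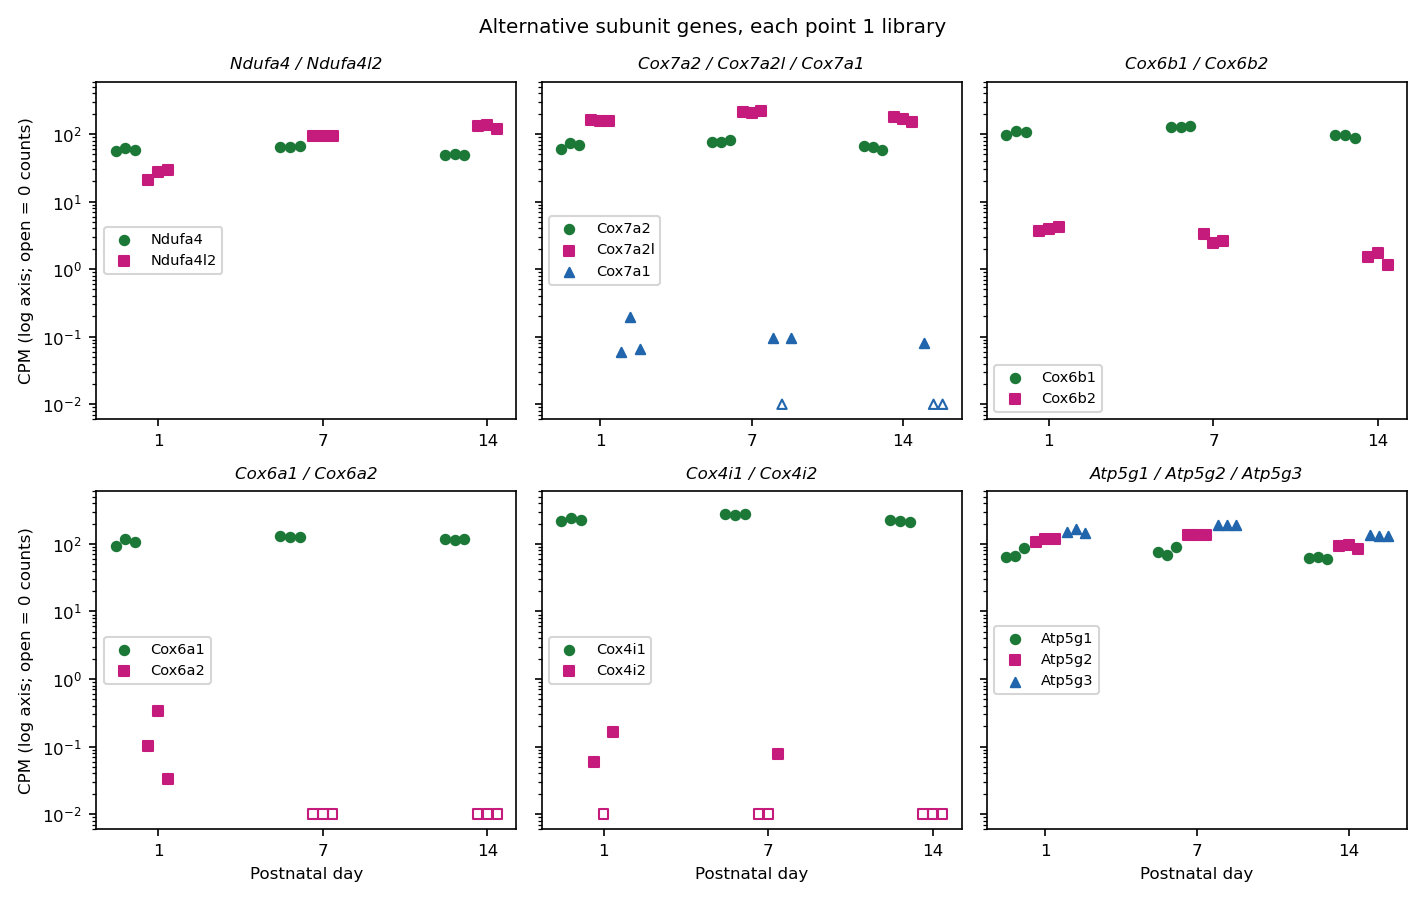
CPM (log axis) of alternative subunit genes by postnatal day, with 1 point per library and open points at the foot of the axis for 0 counts. Ndufa4l2 climbs from 21.1 to 29.4 CPM at day 1 to 117 CPM or more at day 14, Cox6b2 declines, and Cox6a2, Cox7a1 and Cox4i2 stay below 1 CPM.

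Complex V, the ATP synthase, is built of a catalytic head, a central stalk, a peripheral stalk and a ring of c subunits. Of its 15 subunits 10 rose and none fell in the first week, and 13 fell in the second, with Atp5d and Atp5g1 not called. Among all tested genes 25.5% rose and 24% fell in the first week, and 35.1% fell in the second. In the head, Atp5b read 1196, 1237 and 1196 CPM at day 1, 1336, 1273 and 1272 at day 7 and 932, 918 and 925 at day 14. The ages did not overlap, but the first step of 0.097 ± 0.038 was not called (adjusted p = 0.051, edgeR) and was called without day 14 library 4 or 6. The second step was a fall of 0.48 ± 0.038 (adjusted p = 3.16e-07, edgeR). Its partner Atp5a1, the α subunit, read 911, 959 and 937 CPM, then 1089, 1054 and 1045, then 775, 746 and 769. It rose by 0.18 ± 0.039 and fell by 0.48 ± 0.039, the same size of fall as Atp5b. In the central stalk, Atp5c1 (γ) read 214, 217 and 218 CPM, then 245, 236 and 248, then 175, 173 and 174, and fell by 0.48 ± 0.039.

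Atp5d (δ), beside γ in the central stalk, did not follow them. It read 151, 179 and 174 CPM, then 188, 179 and 181, then 184, 183 and 174. Day 14 overlapped both earlier ages, with a second step of -0.017 ± 0.060 (adjusted p = 0.815, edgeR). In the peripheral stalk, Atp5o, the subunit that gives oligomycin sensitivity, read 128, 146 and 138 CPM, then 146, 143 and 145, then 98.1, 96.1 and 92.4. It had the largest fall of complex V, 0.60 ± 0.052, with no call in the first week. Atp5h, subunit d of that stalk, has the promoter printed above and read 112, 123 and 119.7 CPM, then 143, 145 and 145, then 119, 115 and 114. It rose by 0.29 ± 0.045 and fell by 0.31 ± 0.045, so that day 14 overlapped day 1. Atp5l (subunit g), which helps synthases pair in the membrane, read 83.9, 95.6 and 88.6 CPM, then 123, 116 and 134, then 102, 93.5 and 85.8. Its rise, 0.48 ± 0.072, was the largest of complex V.

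The 3 genes Atp5g1, Atp5g2 and Atp5g3 encode the same mature c subunit. Atp5g3 read 149, 167 and 146 CPM at day 1, 190.2, 189 and 189 at day 7 and 137, 133 and 129 at day 14. Atp5g2 read 106, 119 and 116 CPM, then 137, 136 and 138, then 94.5, 95.3 and 84.2. Both rose and then fell without overlap between neighbouring ages, by 0.30 ± 0.053 and 0.27 ± 0.057 up and 0.51 ± 0.053 and 0.58 ± 0.057 down. Atp5g1 read 64.1, 65.8 and 87.9 CPM, then 75.3, 68.6 and 89.4, then 61.4, 63.9 and 60.7. Its libraries scattered more than those of the other c genes at days 1 and 7, and no comparison was called. Its first step was called without day 1 library 6, and its second without day 1 library 6 or day 7 library 2.

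Of the 7 Ndufaf factors only Ndufaf7 was called in the first week, and 6 fell in the second. All tested genes had 25.5% rises and 24% falls in the first week and 35.1% falls in the second. Ndufaf6 (mm10, chromosome 4, 11048991 to 11076237), an assembly factor of the arm that holds the ubiquinone site, had the largest fall of all members in that week. It read 4.78, 4.65 and 4.62 CPM at day 1, 4.77, 4.88 and 4.68 at day 7 and 2.26, 2.07 and 1.89 at day 14. The first 2 ages overlapped, and day 14 was at 0.435 of day 7, a fall of 1.20 ± 0.13 (adjusted p = 4.36e-06, edgeR). Ndufaf7, a methyltransferase that acts on complex I, read 15.6, 14.1 and 15.2 CPM, then 17.4, 16.5 and 17.5, then 15.7, 14.5 and 14.7. It rose by 0.19 ± 0.068, a call lost at 0.15 to 0.21 without library 5 or 6 of day 1 or 1 or 3 of day 7, and fell by 0.19 ± 0.069, a call lost without library 1 or 3 of day 7 or 5 or 6 of day 14 at -0.19 to -0.18.

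Of the genes set apart from the subunits, Cox7a2l encodes a factor that joins complexes III and IV, and C57BL/6 mice are known to carry a shortened form of the protein. It read 163, 155 and 159 CPM at day 1, 209, 202 and 219 at day 7 and 177, 166 and 153 at day 14. Cox7a2l rose by 0.40 ± 0.057 and fell by 0.34 ± 0.057. Atp5s, a coupling factor of the ATP synthase, read 6.39, 5.84 and 5.99 CPM, then 7.90, 9.56 and 8.88, then 8.95, 8.30 and 7.72. It rose by 0.53 ± 0.10 and did not come back down (-0.077 ± 0.10 in the second week, not called). Atp5sl read 25.5, 24.9 and 29.1 CPM, then 24.6, 23.5 and 22.0, then 26.4, 27.4 and 27.5. It fell by 0.18 ± 0.070 (adjusted p = 0.0488, edgeR), lost without day 1 library 6, day 7 library 2 or 3 or any day 14 library at -0.18 to -0.11. Its rise of 0.21 ± 0.071 was lost without library 2 or 3 of day 7 or 5 or 6 of day 14, at 0.16 to 0.21.

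Of all tested genes, 25.5% rose and 24% fell in the first week and 32.5% rose and 35.1% fell in the second, and the lists of genes that serve the complexes are set beside these shares. Of the 78 mitochondrial ribosome genes, which make the subunits coded in mitochondrial DNA, 24 rose, a share near that of all genes, and 3 fell in the first week, and 2 rose and 68 fell in the second, with a median of -0.39. Mrpl44 read 23.3, 23.8 and 23.3 CPM, then 26.4, 28.1 and 27.4, then 14.0, 13.8 and 13.8, the largest fall of that list (0.98 ± 0.056). In the tricarboxylic acid cycle, 7 of 13 genes rose and none fell, and then 11 fell and none rose, with Mdh2, its malate dehydrogenase, falling by 0.46 ± 0.049. Assembly factors outside the Ndufaf group fell in the second week in 7 of 9 cases for complex I, 3 of 4 for complex II, 4 of 6 for complex III, 14 of 20 for complex IV and 3 of 4 for complex V, with 0, 0, 1, 2 and 0 rises, where 35.1% of all genes fell and 32.5% rose. Lyrm7, which handles the Rieske subunit of complex III, fell by 1.22 ± 0.16, Taco1, a translation activator for complex IV, by 0.71 ± 0.10, and Atpaf1, a complex V assembly factor, by 0.68 ± 0.082.

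Single genes for cytochrome c, its maturation and ubiquinone went different ways. Among 4 tested genes for cytochrome c and supercomplex factors, 1 fell and 1 rose in the second week. Those counts are near the shares of all tested genes, of which 35.1% fell and 32.5% rose. Cycs, cytochrome c itself, fell by 0.15 ± 0.045. Hccs, which attaches haem to the c-type cytochromes, read 18.5, 19.3 and 20.5 CPM, then 22.8, 24.8 and 21.8, then 44.8, 40.3 and 36.5, and rose in both steps. In ubiquinone synthesis, against the same shares of all genes, 8 of 11 genes fell and 1 rose in the second week. That one, Coq10b, a ubiquinone-binding protein, read 11.7, 11.9 and 13.6 CPM at day 1, 23.1, 20.3 and 20.9 at day 7 and 85.6, 81.4 and 69.9 at day 14. Its rise over both weeks was 2.67 ± 0.089 (adjusted p = 8.36e-11, edgeR), while Pdss1, which makes the ubiquinone side chain, fell by 1.20 ± 0.18.

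Known regulators of mitochondrial genes went both ways: 4 of 13 rose and 4 fell in the first week, and 4 rose and 6 fell in the second, against 25.5% and 24%, and then 32.5% and 35.1%, of all genes. With 13 genes these counts are not set apart from those shares, and the values of single genes follow. Ppargc1a, the coactivator PGC-1α, read 2.81, 2.30 and 2.60 CPM, then 5.27, 5.74 and 6.11, then 7.25, 10.7 and 5.75, and rose in both steps. Pprc1, a related coactivator, read 96.5, 107 and 105 CPM, then 98.0, 91.3 and 89.5, then 192, 192 and 200.1, with a second-week rise of 1.07 ± 0.053. The third coactivator of the family, Ppargc1b, fell by 0.46 ± 0.076 in that week. Among factors for the motifs searched in the promoters, Yy1 rose by 0.57 ± 0.051, Gabpa fell by 0.23 ± 0.051 and Nrf1 was not called (-0.085 ± 0.052) in the second week. Tfam, which packages and transcribes mitochondrial DNA, fell by 0.41 ± 0.063, and Polrmt, its RNA polymerase, fell in both steps. Ppargc1a and Pprc1 were taken from the fixed list of regulators for having its largest called changes. Ppargc1b, Yy1, Gabpa, Nrf1, Tfam, Polrmt and Cycs were named after their values were seen.

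Most members encode short proteins, and short genes as a class moved the same way. The coding length was 438 bases at the median of the members and 1395 over tested genes. Among tested genes with coding lengths from 111 to 759 bases, the first of 5 bins, 2667 other genes had a median log2 fold change of 0.098 in the first week and -0.18 in the second. The 65 members in that bin had medians of 0.21 and -0.41. Of them 38 rose in the first week (others 33.6%) and 55 fell in the second (others 43.9%). In the bin of longest genes, which held no member, the medians were -0.085 and 0.077. The part of length in the members' changes was not tested. In the second week, the members' medians in the 4 bins that held any lay between -0.43 and -0.37, below the other genes of the same length.

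**Figure D5:**
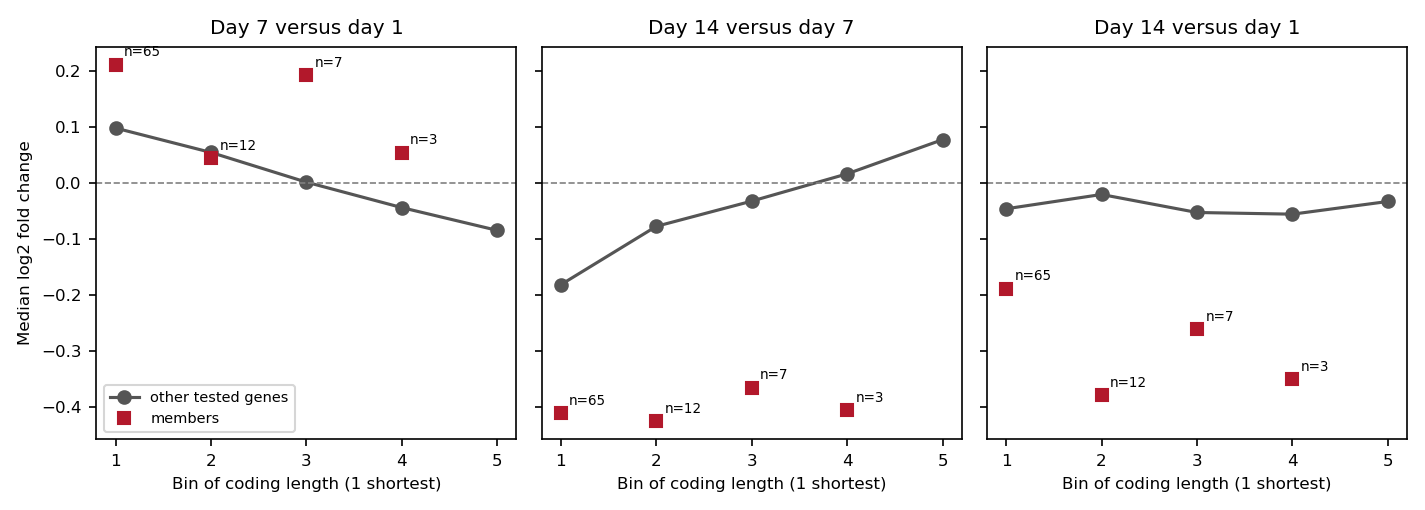
Median log2 fold change by bin of coding length (1 shortest, 5 longest) for members (red squares, with their number) and other tested genes (grey line), in the 3 comparisons of days. In the day 14 versus day 7 panel the grey line climbs from -0.18 to 0.077 and the members lie between -0.43 and -0.37; in the day 7 versus day 1 panel the second bin has the members (0.045) at the level of other genes (0.054).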

How the data were processed

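Bulk RNA sequencing of sorted mouse skin cells at 3 ages was analysed from 1 table of 24532 genes with NCBI gene identifiers. The submitters' processing notes name bcl2fastq 2.20.0 and Trimmomatic, then StringTie 1.3.4d with HISAT2 2.1.0, and the build mm10. How reads were counted, with which strand setting and which annotation, is not given in the sources used here, so genes overlapped by antisense genes or with near-identical copies are uncertain. Per the file headers, the values used here are read counts per gene. A further 18 columns, headed FPKM or TPM, hold normalised values per sample and were not used. Columns headed D0 were taken as day 1, since days 7 and 14 have headers of their own, and headers do not match titles within a day.

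Counts were tested with edgeR 4.0.16 in R 4.3.3: TMM factors, filterByExpr (14507 genes left), 1 robust quasi-likelihood model of the 9 libraries by day, and Benjamini-Hochberg adjustment over all genes tested, with a call at an adjusted p under 0.05. CPM values are TMM-scaled, and log2 fold changes are given ± SE. The steps were tested on simulated data, with changed genes drawn from tested genes at large and not from the members. Simulated 1.25-fold changes were called in 37.3% of cases in the first week, 28.4% in the second and 22.4% over both weeks. At 2-fold these shares were 90.9%, 90.9% and 89.4%. A gene that was not called may therefore still have changed by a small amount. The members and lists were chosen with earlier results of these data known, so no test of a list was made and lists are described by counts and medians. In each complex the text names core subunits, alternative genes and the called member with the largest rise and fall per comparison. From each other list up to 2 called genes with the largest change were selected, but the text does not name all of them. Those left out include Coa4, which had the largest change of the complex IV assembly list. Alternatives were DESeq2 1.42.0, limma-voom (limma 3.58.1), other scalings and filters, halved counts, a 1.5-fold test, single libraries left out and a replicate block. Levels per length divide CPM by the longest transcript in the GENCODE M21 basic annotation. Coding lengths are the sums of coding exons in the same annotation and stand in for protein lengths, which were not used here. They were found for all 93 members and 94.1% of tested genes. Gene positions are those of mm10 in RefSeq, matched by identifier for all members, and promoters are RefSeq windows of GRCm38.p6. Chromosome 18 sequences are not shown. One member is included in counts and medians, but its own values are not reported here.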

Additional observations from a re-analysis of the deposited data

How the results depend on the processing

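With the 3 ages compared under the alternatives, 71 of the 75 second-week falls and 22 of the 47 first-week rises were called under each alternative other than the 1.5-fold test, as were 46 of the 54 falls over both weeks. Against a fold of 1.5, 1 member was changed in the first week (1 rose, 0 fell), 2 in the second (0 rose, 2 fell) and 4 over both weeks (1 rose, 3 fell). With library totals alone, 26 members changed in the first week (22 rose), 1 rose in the second and 2 rose over both. With upper quartile factors 1 rose in the second week and 3 over both. Falls over both weeks numbered 78 with library totals and 72 with upper quartile factors, against 54 in the main fit. Of the 28 members not called over both weeks, 4 stayed uncalled with library totals. Over both weeks library totals alone reversed Atp5l (-0.21), Atp5sl (-0.24) and Cox7a2l (-0.21), whose main values were 0.068, 0.031 and 0.061, not called. That scaling applies no TMM factors, and over both weeks the median of all genes was -0.32 with it and -0.046 with TMM. The member median relative to all genes was -0.19 with it and with TMM, a distance that rescaling leaves nearly unchanged in any data. Which scaling is nearer the true levels was not tested. Leaving out 1 library gave 35 to 55 rises and 1 to 3 falls in the first week (38 to 56 changed), 1 to 2 rises and 71 to 78 falls in the second (72 to 80), and 3 to 6 rises and 46 to 63 falls over both (52 to 66). Without the 50 most abundant genes in the denominator, which raises each share, the shares at days 1, 7 and 14 were 0.228%, 0.240% and 0.163% for complex I, 0.0536%, 0.0546% and 0.0327% for complex II, 0.133%, 0.144% and 0.0964% for complex III, 0.142%, 0.156% and 0.107% for complex IV and 0.471%, 0.502% and 0.321% for complex V. Headers share the numbers 4, 5 and 6 between days 1 and 14, but same-numbered libraries correlated at 0.0141, 0.0102 and 0.104 in their deviations and not each was closest to its own number. The numbers were read as names, and the fit with that number as a replicate block gave 4 rises and 49 falls against 5 and 54. Ndufs5 and Cox6b2, at a few CPM, and the other muscle and testis forms, below 1 CPM or at 0, are limited by their counts.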

Other observations

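Genes that exchange ATP or protons with the mitochondrial matrix were listed with the members but belong to no complex. Of the 4 tested, 2 rose and 1 fell in the first week, and 2 rose and 2 fell in the second. Among all tested genes 25.5% rose and 24% fell, and then 32.5% rose and 35.1% fell. With 4 genes these counts are not set apart from those shares, and not every gene tested is described here. Ucp2, an inner membrane carrier of the uncoupling protein family, read 146, 182 and 148 CPM at day 1, 333, 303 and 326 at day 7 and 471, 442 and 428 at day 14, with no overlap between ages and a rise in both steps (1.02 ± 0.080 and 0.48 ± 0.080 on the log2 scale, adjusted p = 1.43e-06 and 0.000246, edgeR). Slc25a4, an ADP/ATP carrier, read 129, 147 and 136 CPM, then 127, 121 and 118, then 76.8, 80.8 and 77.4, and fell in both steps by 0.17 ± 0.054 and 0.64 ± 0.054. Its paralogue Slc25a5 read 408, 431 and 409 CPM, then 509, 490.4 and 497, then 442, 413 and 405. It rose by 0.26 ± 0.046 and fell by 0.25 ± 0.046, so that day 14 overlapped day 1. Ucp1, the uncoupling protein of brown fat, had 0 counts in all 9 libraries.

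Atpif1, which inhibits the ATP synthase when it runs in reverse, was the one gene of its list of 4 that did not fall in the second week. It read 102, 119 and 112 CPM at day 1, 134, 143 and 144 at day 7 and 136, 136 and 121 at day 14. It rose by 0.34 ± 0.066 in the first week, and day 14 stayed above day 1 by 0.24 ± 0.066 (adjusted p = 0.00558, edgeR). Higd1a, a hypoxia-induced factor of the respiratory chain, read 38.9, 47.4 and 48.6 CPM, then 54.9, 58.8 and 56.9, then 62.8, 62.5 and 60.6. Its rise over both weeks was 0.46 ± 0.073, with no overlap between day 1 and day 14. Slc25a5 and Atpif1 were named after their values were seen.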
